A study of Mus musculus with 2 samples.

Results

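The 10 genes described here encode the Engrailed, Gbx, Otx and Pax transcription factors that pattern the midbrain and hindbrain: En1, En2, Gbx2, Otx1, Otx2, Pax2, Pax3, Pax5, Pax6 and Pax7. They were chosen by gene family, with no rule on measured values but with earlier results of these data known, and all 10 were found among 21631 protein-coding genes of RefSeq on the mouse autosomes and chromosome X. For each gene, every region of Brg1 enrichment in the gene or within 5 kb of it was taken, and then every region within 100 kb. Brg1, encoded by Smarca4, is the ATPase of the BAF (SWI/SNF) complex, which moves nucleosomes. Its binding was measured by ChIP-seq in primary medulloblastoma that arose spontaneously in mice carrying CAG-CreER and Rosa26-SmoM2, a model of the Shh type of this cerebellar tumour. SmoM2 is a constitutively active form of Smoothened, held at the Rosa26 locus, and CAG is a promoter active in most cell types, so the transgenes do not by themselves single out a cell type. For the animals' age, any inducing agent and the number of tumours used, the sources used here give nothing. The J1 antibody is labelled as recognising Brg1 and its paralogue Brm, so a region below can be bound by either.

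There was 1 ChIP library, and 1 input library that is not analysed here. The ChIP library is represented by 5727 enriched regions, called islands, with a median width of 2200 bp and a median of 68 reads. The islands hold 472238 reads, and the library's total depth is unknown. With 1 library there is no error between animals, no test between conditions and no replicate check of any value below. Intervals on reads and on shares cover counting error only. The list holds regions that passed the authors' caller, so a gene with no island is not shown to lack Brg1. No expression was measured in this library. Of 6 marker genes of granule neuron progenitors (Atoh1, Barhl1, Zic1, Meis1, Mycn and Gli1), all 6 had an island in the gene or within 5 kb. The same held for 1 of 4 Purkinje cell markers (Foxp2), 1 of 4 astrocyte and Bergmann glia markers (Gfap), 1 of 4 oligodendrocyte markers (Mbp), 1 of 4 endothelial markers (Cdh5) and 0 of 4 microglial markers. Such an island was found at 16.9% of all protein-coding genes. All 6 progenitor markers also stand in a longer list given below. Several genes of that list were known to carry islands when it was drawn up. These counts are therefore no independent evidence of cell type.

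The border between midbrain and hindbrain forms in the embryo where Otx2, expressed in front of it, meets Gbx2, expressed behind it, and each represses the other. The isthmic organizer that develops at this border secretes Fgf8 and Wnt1, and En1, En2, Pax2 and Pax5 are expressed around it and are needed for midbrain and cerebellum. Several of these factors are used again later in the cerebellum: Pax6 in granule neuron progenitors, Pax2 in precursors of inhibitory interneurons, and Otx2 in progenitors of the posterior lobules. En, Gbx and Otx proteins bind DNA by a homeodomain. Pax proteins are defined by a paired domain; Pax3, Pax6 and Pax7 also have a complete homeodomain, and Pax2 and Pax5 only part of one.

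Start windows at the Pax6, Otx2 and En2 loci are shown first, because they show where the islands nearest to these genes lay relative to transcription starts. Each is RefSeq sequence of build GRCm38.p6 (mm10), from 250 bases before to 50 bases after an annotated start, 5′ to 3′ on the gene's strand. Those of Pax6 (chr2:105668646-105668945, plus strand) and Otx2 (chr14:48667595-48667894, minus strand) are the outermost annotated starts of the genes and lay outside any island, 3148 and 2082 bp from the nearest. Those of Gm52808 (chr5:28174774-28175073, plus strand), a lncRNA gene beside En2, and Cnpy1 (chr5:28210119-28210418, minus strand), the next protein-coding gene after En2, lay wholly inside an island. Capitals mark matches, on either strand, to any of 6 words: the E-boxes CAGCTG and CAGATG that bHLH factors bind, the homeodomain words TAATTA and TAATCC, the Gli core CCACCCA and the nuclear factor I core TTGGC.
Pax6: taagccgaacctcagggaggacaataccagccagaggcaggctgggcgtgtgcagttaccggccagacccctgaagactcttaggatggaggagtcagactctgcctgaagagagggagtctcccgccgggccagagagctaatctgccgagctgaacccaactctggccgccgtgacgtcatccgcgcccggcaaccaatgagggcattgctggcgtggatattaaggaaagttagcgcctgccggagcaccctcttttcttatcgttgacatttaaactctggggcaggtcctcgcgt
Otx2: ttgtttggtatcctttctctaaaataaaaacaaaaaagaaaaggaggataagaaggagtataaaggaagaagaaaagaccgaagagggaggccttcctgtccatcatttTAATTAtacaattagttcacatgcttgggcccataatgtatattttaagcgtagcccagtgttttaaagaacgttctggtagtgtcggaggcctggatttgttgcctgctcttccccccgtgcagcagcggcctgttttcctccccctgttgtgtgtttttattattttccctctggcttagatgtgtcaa
Gm52808: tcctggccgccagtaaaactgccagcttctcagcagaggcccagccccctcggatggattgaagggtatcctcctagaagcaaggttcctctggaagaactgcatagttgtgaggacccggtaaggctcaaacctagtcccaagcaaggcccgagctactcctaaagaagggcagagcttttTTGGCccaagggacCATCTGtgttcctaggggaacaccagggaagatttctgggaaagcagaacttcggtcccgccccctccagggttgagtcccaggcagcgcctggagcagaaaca
Cnpy1: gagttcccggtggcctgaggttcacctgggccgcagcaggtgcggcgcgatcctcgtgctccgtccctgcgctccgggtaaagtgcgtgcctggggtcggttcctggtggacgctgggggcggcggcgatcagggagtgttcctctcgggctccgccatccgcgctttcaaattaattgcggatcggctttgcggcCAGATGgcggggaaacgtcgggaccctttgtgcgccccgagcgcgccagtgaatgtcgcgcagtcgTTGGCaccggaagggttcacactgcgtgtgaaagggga
The Pax6 window held none of the 6 words. The Otx2 window held TAATTA at base 110. The windows of Gm52808 and Cnpy1 each held CAGATG at base 197, on the opposite strand in Gm52808, and TTGGC, at base 183 in Gm52808 and base 263 in Cnpy1. Start windows of 2 more genes lay inside islands within 100 kb of a member and are not printed. That of Insig1 held TTGGC and not CAGATG, and that of the lncRNA gene 4933427I22Rik held neither, but held CAGCTG and TAATCC. Of the 32851 start windows in the table, 17.2% held CAGATG and 46.7% held TTGGC. A match describes the letters and does not show that a factor binds there.

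Of the 10 genes, 4 had an island in the gene or within 5 kb: Pax6, Otx2, En2 and Pax5 (40%, Wilson 95% interval 16.8 to 68.7). Among all protein-coding genes 16.9% did. Among the 5 members under 20 kb long the count was 2 (En2 and Otx2), where 10.4% of all protein-coding genes of that length had such an island. Among the 5 members of 20 to 200 kb it was also 2 (Pax5 and Pax6), where 21.9% of genes of that length did. Each of the 4 genes had 1 such island, and together these held 282 reads. The count rests on the 5 kb limit, since only Pax6 and Pax5 had an island within 1 kb. It also rests on islands with few reads, since only that of Pax6 had at least the median read count of the list. The members nearest to the limit were Otx2 and En2 inside it, at 2082 and 2471 bp, and Pax7 outside it, at 97956 bp.

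Widening the window to 100 kb added Pax7, so that 5 of 10 genes had an island (50%, Wilson 95% interval 23.7 to 76.3), close to the 45.6% of all protein-coding genes. Within this distance lay 12 islands, none shared by 2 members: 3 each at En2, Otx2 and Pax6, 2 at Pax5 and 1 at Pax7. At least 3 islands within 100 kb were found at 10.7% of all protein-coding genes. The mean number of islands within 100 kb was 1.2 for the 10 genes and 0.873 for all protein-coding genes, and the medians were 0.5 and 0. Pax7, at 97956 bp, lay just inside the limit of 100 kb, and Otx1, at 109747 bp, just outside it.

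**Figure D1:**
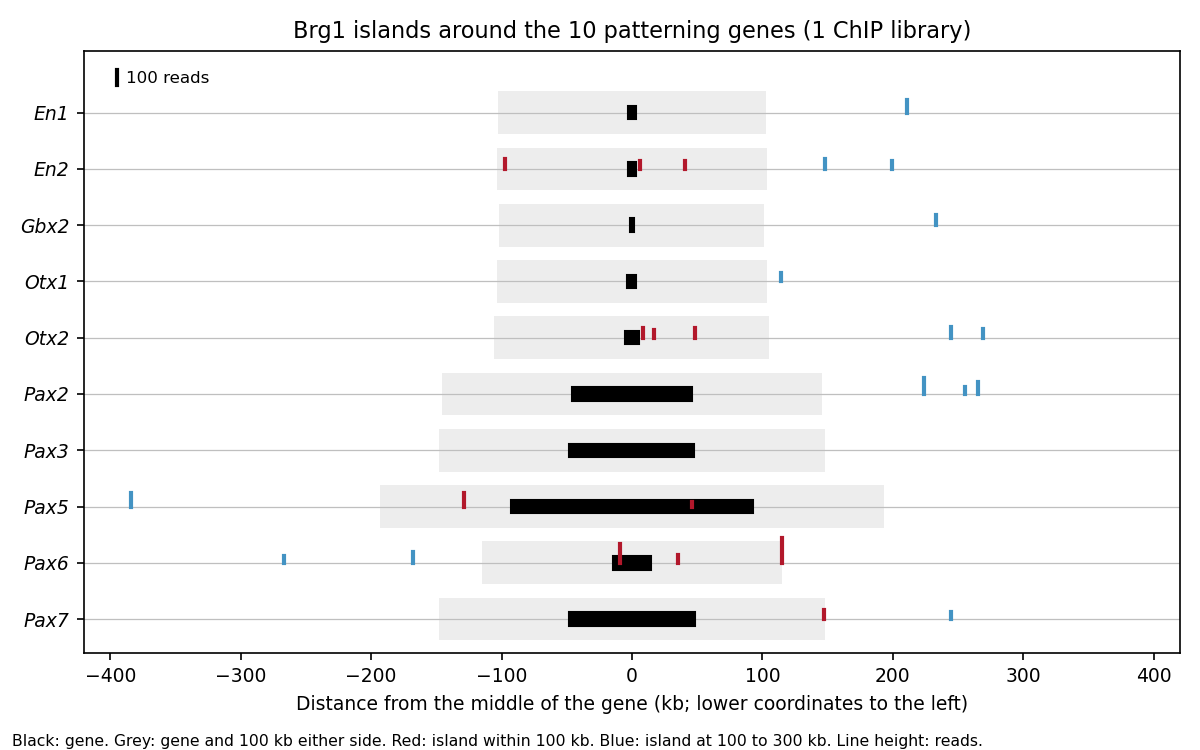
Islands around the 10 genes, 1 row per gene, with distance from the middle of the gene in kb on the x axis and the height of each line giving the reads of an island. Black bars are genes, grey bands reach 100 kb either side, red lines are the 12 islands within 100 kb and blue lines are islands at 100 to 300 kb; En1, Gbx2, Otx1, Pax2 and Pax3 have no red line.

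Pax6, which in the cerebellum marks granule neuron progenitors and their offspring, had the islands with the highest read counts. Its gene (chr2:105668896-105698410, plus strand, 29515 bp) contained an island of 132 reads (exact Poisson 95% interval 110 to 157) over 4600 bp (chr2:105672044-105676643). The island began 3148 bp downstream of the first annotated start and ended 5820 bp before the other annotated start (105682463), so it lay between them and covered neither. Only 5.36% of islands had as many reads or more. That rank went with its width: of the 39 islands of 4600 bp, 24 had fewer reads, 13 had more, and their median was 125. Per 200 bp the Pax6 island had 5.74 reads, where the median of the list was 6.27. Whether the island lies over exons or introns was not analysed here.

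A pair of further islands lay beyond Pax6 on the side of its higher coordinates, inside the neighbouring gene Elp4. Elp4 encodes a subunit of the Elongator complex, overlaps the end of Pax6 and runs towards it on the opposite strand, and its introns are known in mammals to hold distant regulatory elements of Pax6. The nearer island, 20034 bp from Pax6, had 54 reads (interval 40.6 to 70.5) over 1600 bp (chr2:105718444-105720043). The farther, 96.8 kb from Pax6, had 177 reads (152 to 205) over 7000 bp (chr2:105795244-105802243). This was the widest and the highest in reads of the 12 islands, and 0.838% of all islands were as wide or wider. For its width its count was not high: of the 9 islands of 7000 bp, 7 had more reads, and their median was 198. It lay 97.9 and 102 kb from the ends of Elp4, and no start window overlapped it. No island overlapped Paupar or Pax6os1, the lncRNA genes on the other side of Pax6.

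En2, an Engrailed gene expressed around the isthmus and later in the cerebellum, had 3 islands within 100 kb, and each covered an annotated start of another gene. The gene itself (chr5:28165696-28172190, 6495 bp) contained none. The nearest lay 2471 bp beyond its higher-coordinate end and had 53 reads (interval 39.7 to 69.3) over 1400 bp (chr5:28174661-28176060), where the median of 387 islands of that width was 51. It covered the start of the lncRNA gene Gm52808, whose window is printed above. The next lay 36.9 kb from En2 and had 54 reads (40.6 to 70.5) over 1600 bp (chr5:28209061-28210660). It covered 1 of the 2 annotated starts of Cnpy1, which encodes a regulator of Fgf signalling studied at the midbrain-hindbrain border of zebrafish. The third, 93.2 kb away on the other side, had 72 reads (56.3 to 90.7) over 2400 bp (chr5:28070061-28072460). It covered the start of Insig1, a regulator of sterol synthesis, and overlapped the lncRNA gene Gm35223.

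Otx2, which specifies forebrain and midbrain, had 3 islands, all on its upstream side and all inside the lncRNA gene Otx2os1. The gene (chr14:48656781-48667644, minus strand, 10.9 kb) contained none. The islands lay 2.08, 10.5 and 41.5 kb from its outermost start. They had 66 reads (interval 51.0 to 84.0; chr14:48669726-48671725), 57 reads (43.2 to 73.9; chr14:48678126-48680125) and 67 reads (51.9 to 85.1; chr14:48709126-48711325). These 3 intervals overlap, so the islands could not be ranked by reads. Their widths of 2000, 2000 and 2200 bp were near the median of the list, and the medians of islands of those widths were 62, 62 and 66 reads. No start window overlapped them. The next protein-coding gene, Tmem260, was between 110 and 149 kb from them.

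Pax5, a partner of Pax2 at the isthmus that is also the B-cell commitment factor, had the island with the fewest reads. It lay inside the gene (chr4:44524748-44710694, minus strand, 186 kb), 46.4 kb downstream of the annotated start, and had 31 reads (interval 21.1 to 44.0) over 600 bp (chr4:44663729-44664328). Only 44 of the 5727 islands were 600 bp or narrower, and 11 had 31 reads or fewer. Of the 35 islands of 600 bp, 1 had fewer reads and 31 had more. Per 200 bp this narrow island had 10.3 reads, the highest of the 12 islands, where the median of the list was 6.27. The other Pax5 island had more reads, 97 (78.7 to 118) over 3000 bp (chr4:44487729-44490728). It lay 34020 bp beyond the lower-coordinate end, downstream of the gene. Of the 298 islands of that width, 245 had fewer reads. It was the only 1 of the 12 that overlapped neither a protein-coding gene nor a lncRNA gene; the nearest protein-coding gene after Pax5 was Melk, 123 kb away.

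Pax7, a factor of the dorsal midbrain (chr4:139737059-139833530, minus strand, 96.5 kb), had a single island of 62 reads (interval 47.5 to 79.5) over 2400 bp (chr4:139931486-139933885). It lay 98.0 kb away on the upstream side. It covered a start of the lncRNA gene 4933427I22Rik and overlapped the lncRNA gene Gm1667. The protein-coding genes Klhdc7a, at 28.3 kb, and Igsf21, at 93.0 kb, were both nearer to it than Pax7. Of the 452 islands of that width 410 had more reads.

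The other 5 genes had no island within 100 kb. Otx1, the paralogue of Otx2 (chr11:21994764-22001651), had its nearest island 110 kb away inside Ehbp1, with 60 reads. For Pax2 (chr19:44746601-44838269) it lay 176 kb away over a start of Lzts2, with 117 reads. For En1 (chr1:120602487-120607991) it lay 206 kb away in the lncRNA gene Gm29345, with 92 reads. For Gbx2 (chr1:89927962-89931176) it lay 230 kb away, 7.59 kb from Iqca and outside any protein-coding or lncRNA gene, with 70 reads. The median distance over all protein-coding genes was 125 kb, and between 36.6% and 52.6% of them were as far from an island as these 4 or farther.

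Pax3, a factor of the dorsal neural tube and neural crest (chr1:78101267-78197136), stood farthest from any island. Its nearest, of 62 reads over a start of Dock10, lay 2.56 Mb away. Of all 21631 protein-coding genes, 945 (4.37%) were as far from an island or farther. On the autosomes alone, without chromosome X, this held for 401 of 20665 (1.94%). Within 500 kb Pax3 had 0 islands, whereas Otx1 had 1, En1 and Gbx2 had 2 each, Pax2 had 4, En2 and Pax5 had 5 each, Pax7 had 6, and Otx2 and Pax6 had 7 each.

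The members of each paralogue pair are set side by side here, where 45.6% of all protein-coding genes have an island within 100 kb. Within 100 kb En2 had 3 islands and En1 had 0. Otx2 had 3 and Otx1 had 0. Pax5 had 2 and its close relative Pax2 had 0, and Pax7 had 1 and its close relative Pax3 had 0. With 1 library these differences have no test, and they depend on the limit. Within 300 kb En2 had 5 islands and En1 had 1, Otx2 had 5 and Otx1 had 1, Pax5 and Pax2 had 3 each, and Pax7 had 2 and Pax3 had 0.

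The 12 islands lay on either side of the medians of the list. Their median was 64 reads (range 31 to 177), and their median width was 2100 bp (600 to 7000). In reads 8 lay below the median of all islands and 4 above it. Against islands of the same width 6 had more reads than the median and 6 had fewer.

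**Figure D2:**
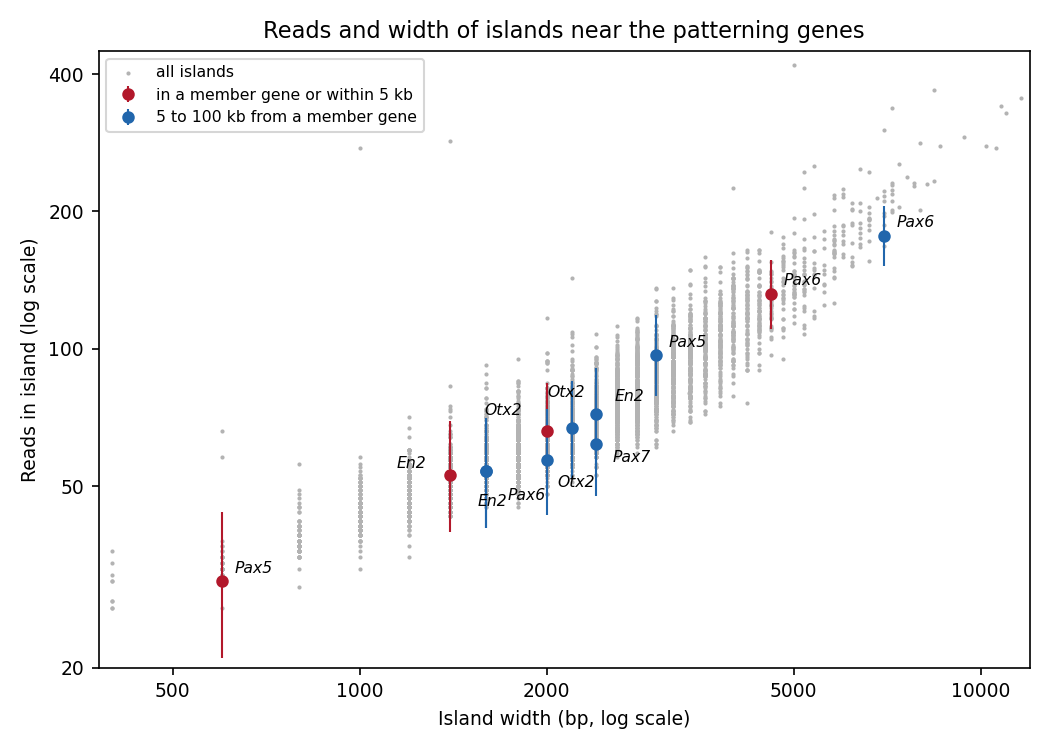
Reads against width of islands, both on log scales. Grey points are islands of the list (21 islands beyond 12000 bp or 450 reads are not drawn), red points the 4 islands in a member gene or within 5 kb and blue points the 8 islands at 5 to 100 kb; bars are exact Poisson 95% intervals. The points lie within the grey cloud at each width, from Pax5 at 31 reads to Pax6 at 177, and the points of 54 reads for En2 and Pax6 coincide.

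The genes under the islands were counted as a description, with no test. Of the 12, 6 overlapped a lncRNA gene, against 18.1% of all islands. These 6 are not separate cases, since 3 of them lay in Otx2os1. A protein-coding gene was overlapped by 6 of 12, against 69.4% of all islands, and in 2 of these the gene was the member itself, Pax5 and Pax6. A start window of any gene was overlapped by 4 of 12, against 28.3% of all islands, and none of the 4 starts belonged to a member.

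No annotated start of a member carried an island. Start windows were matched for 7 of the 10 genes, with 13 windows in all: 4 of Otx2, 3 of Pax2, 2 of Pax6 and 1 each of En1, Gbx2, Pax5 and Pax7. None of the 13 overlapped an island. En2, Otx1 and Pax3 had no matched window, and no island lay nearer to these genes than 2471 bp. Windows of 1 gene lie close together, so a limit is given over genes: 0 of 7, taken as at most 3 counts, allows a share of up to 42.9%. With so few genes this limit is only rough, and it covers counting error only. Of all protein-coding start windows 8.83% overlapped an island. That share counts windows and not genes, so it cannot be set against the limit. A window was called CpG-rich where it had at least 50% G and C and an observed to expected CpG ratio of at least 0.6. This held for 7 of the 13, among them those of Gbx2, En1 and Pax5 and the first of Pax6. Of all protein-coding start windows 45.6% were CpG-rich, and 14.9% of CpG-rich windows of protein-coding genes overlapped an island. The nearest island to any member start was that upstream of Otx2.

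In the 13 windows the E-box CAGCTG was found in 3 (En1, Gbx2 and 1 of Pax2), against 16.3% of all windows in the table. CAGATG was found in 1 (Otx2), against 17.2%. TAATTA was found in 2, both of Otx2, against 5.29%, and TAATCC, the word that Otx proteins themselves bind, in 1, also of Otx2, against 7.06%. TTGGC was found in 4 (Pax5, Pax7 and 2 of Pax2), against 46.7%, and CCACCCA in 0, against 9.30%. Absence of a word says only that these letters are not in these windows.

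**Figure D3:**
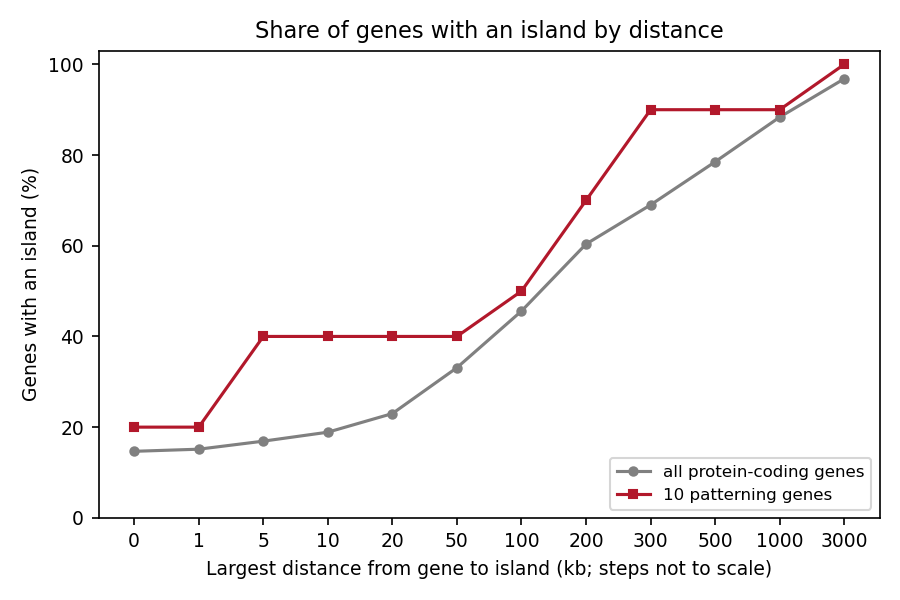
Share of genes with an island at or within each distance in kb (x axis, steps not to scale), for the 10 genes (red) and for all protein-coding genes (grey). At 5 kb the shares are 40% and 16.9%, at 100 kb 50% and 45.6%, and at 1000 kb 90% and 88.4%, where Pax3 is the gene still without an island.

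Other genes of the isthmic pathway were read from a list of 43: organizer signals and their mediators, cofactors of En and Pax proteins, genes of neighbouring territories, and the other Gbx, Otx and Pax family genes. An island lay in the gene or within 5 kb in 9 of the 43 (20.9%), against the 16.9% of all protein-coding genes. Of these, 8 are described here by their strongest islands. Pbx3, which encodes a homeodomain partner of Engrailed, had 201 reads, and its relative Pbx2 had no such island. The corepressor gene Tle3 had 149 reads, and its relatives Tle1 and Tle4 had no such island. Among feedback inhibitors of Fgf signalling Dusp6 had 143 reads and Spry2 had 136, while Spry1, Spry4 and Il17rd had no island in the gene or within 5 kb. The Wnt effector Tcf7l2 had 87 reads, the Fgf receptor gene Fgfr1 had 56 (Fgfr2 and Fgfr3 had no such island), Cnpy1 had 54 and the Notch target Hes5 had 50. The island of Cnpy1 is the same as that 36.9 kb from En2. The organizer's ligand genes Fgf8 and Wnt1 had none, with the nearest islands 262 and 158 kb away. None of the remaining family genes Gbx1, Crx, Pax1, Pax4, Pax8 and Pax9 had any.

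Among POU homeobox genes, 5 of 14 (35.7%) had an island in the gene or within 5 kb, against 16.9% of all protein-coding genes. Of 20 genes of granule neuron progenitors and Hedgehog signalling 17 (85%) had one, with strongest islands from 66 reads at Ccnd2 to 231 at Nfia. Differences between these lists were not tested, and several of their genes were known to carry islands when the lists were drawn up.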

How the data were processed

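The authors deposited a list of SICER islands with a whole number for each; that number was taken as the count of reads in the island, not scaled for depth, since the deposited file has no column names. SICER 1.1, Bowtie 0.12.7 and Picard 1.127, with mm10 and mm9 as builds, are listed in the submitters' processing notes. The role of each build, the calling thresholds and the use of the input were not given in the sources used here. Deposited starts and ends were raised by 1, which makes 5724 of 5727 widths multiples of 200 bp. Coordinates fit mm10: protein-coding gene ends had 1861 islands within 1 kb, against 501 to 575 after shifts of 50 to 200 kb.

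Distances run from the RefSeq gene extent (GRCm38.p6) to the island edge, and an overlap counts as 0. Strand came from start windows, so En2, Otx1 and Pax3 are described by coordinate. Wilson and exact Poisson 95% intervals came from scipy 1.17.1. Overlap code was tested on simulated data. No test between groups was possible with 1 ChIP library. Planned protein comparisons were not made. Members and lists were chosen with earlier results of these data known. Named genes are all members, genes at or nearest to their islands, and up to 12 listed genes with islands; 1 gene that this rule takes is not reported here.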

Additional observations from a re-analysis of the deposited data

How the results depend on the processing

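Of 46 alternative values, 35 stayed within 1.5 times the reported one and 11 did not. All 11 were values of the members and their islands, and none was of the organizer or granule progenitor list. The pooled count therefore makes the members' results look steadier than they were. The 4 members with an island became 2, and their 282 reads became 163, both for the gene body only and within 1 kb. With the 2938 islands that reach the median read count, or the 1464 with the highest counts, 1 member was left, Pax6, with 132 reads, and the 12 islands within 100 kb became 4 and 3. Counting an island for its nearest protein-coding gene only, an alternative added after seeing the data, left 7 of the 12 islands and all 4 members. These changes follow from the construction: fewer islands, a narrower window or, in the last case, another rule of assignment. The count for the granule progenitor list went from 17 to 15 at the lowest. The count for the organizer list fell from 9 to 6 under both limits on read count, which is just at the bound of 1.5 times. Without replicates no library could be left out, and the reads of an island of 31 to 72 reads have wide counting intervals.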
